A study of Mus musculus with 6 samples.

Results

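The sites described here are places in the genome of resting mouse macrophages that carried p300 together with PU.1 and H3K4me1, and at which no p300 peak was called once the cells had met lipopolysaccharide (LPS). They were found from the authors' deposited peak lists. The p300 peaks of untreated and LPS-treated cells were merged where they overlapped, on chromosomes 1 to 19 and X, into 19879 sites. A site was kept if it overlapped, by at least 1 bp, a p300 peak of the untreated list, no p300 peak of the LPS list, a PU.1 peak and an H3K4me1 peak of untreated cells. This left 2638 sites, 13.3% of all merged p300 sites, called untreated-only sites below. The choice used the p300 peaks of both conditions and the untreated PU.1 and H3K4me1 peaks, so the loss of p300 and the presence of the other features at the start are descriptions and not findings.

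All libraries came from bone marrow cells of female Fvb mice, cultured in medium with L929-conditioned supernatant to day 7 of differentiation into macrophages. The labels name no genetic change, and by them the untreated and LPS groups differed in treatment alone, which was LPS at 10 ng/ml for 2 h. Marker genes of the cell type were not analysed here. Chromatin immunoprecipitation with sequencing gave 2 p300 libraries per condition, described as biological replicates, and 1 library each for PU.1 untreated, PU.1 after LPS, H3K4me1 untreated and input DNA. Differences in PU.1 and H3K4me1 therefore had no replicate check, and their intervals cover counting error only.

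p300 is a histone acetyltransferase with no DNA specificity of its own, brought to enhancers and promoters by transcription factors, and its peaks are widely used to find active enhancers. PU.1 is an ETS-family factor that establishes and maintains the macrophage lineage and opens many of its enhancers. H3K4me1, mono-methylation of lysine 4 of histone H3, marks enhancers whether or not they are active at the time. LPS, sensed by the receptor TLR4 on the macrophage surface, starts a broad transcriptional response.

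For comparison, 3264 sites had a p300 peak in both lists and 1597 had one in the LPS list alone, each chosen with the same untreated PU.1 and H3K4me1 peaks. They are called shared sites and LPS-only sites below. Of the 7692 p300 sites found in the untreated list alone, 2638 carried both marks, against 3264 of the 4619 sites in both lists and 1597 of the 7568 in the LPS list alone.

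The p300 libraries differed strongly in enrichment, and this touches each p300 value. Reads kept after removing duplicates numbered 5503587 to 6428281 in the 4 p300 libraries and 5828606 to 6100615 in the other 4. At the untreated-only sites, replicate 1 held 1.28 times the reads of input per kept read in untreated cells and 1.17 times after LPS. Replicate 2 held 5.81 times and 2.35 times. Replicate 1 thus stood barely above input in both conditions, and on this measure the difference between conditions lay mainly in replicate 2. The groups overlapped on this measure, since LPS replicate 2 lay above untreated replicate 1. With 2 libraries against 2, an exact permutation test of a single value cannot give a two-sided p below 0.333.

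**Figure D1:**
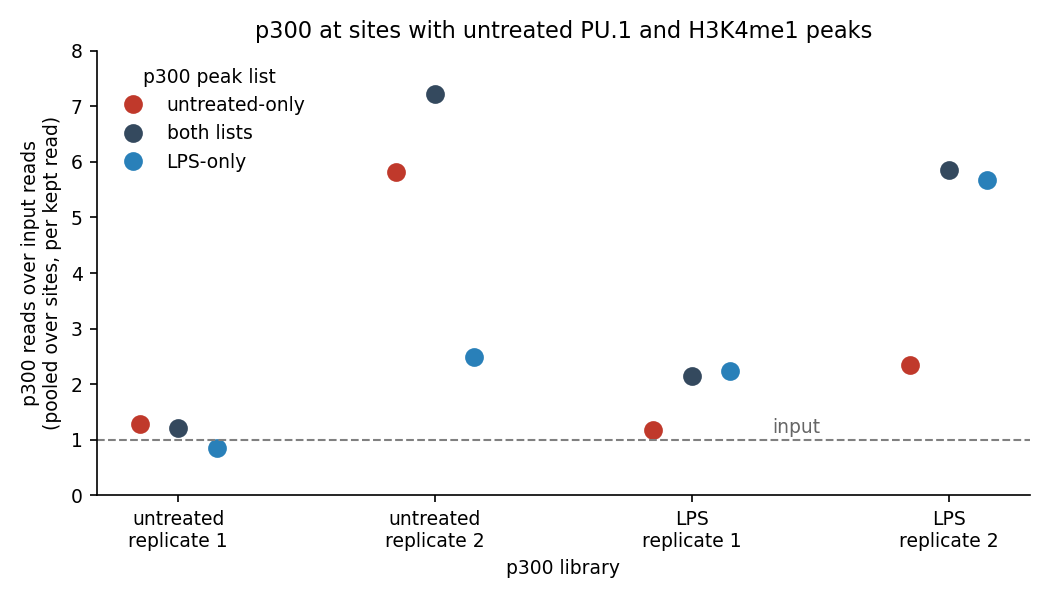
p300 reads pooled over sites, divided by input reads at the same sites after scaling to kept reads (vertical axis, linear), for each of the 4 p300 libraries (horizontal axis), at untreated-only, shared and LPS-only sites that all carried untreated PU.1 and H3K4me1 peaks. At untreated-only sites the values were 1.28 and 5.81 in untreated replicates 1 and 2, and 1.17 and 2.35 in LPS replicates 1 and 2, while shared sites stood at 5.86 in LPS replicate 2.

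A ratio taken inside each library needs no scaling between libraries. Reads at the untreated-only sites came to 53.3% and 40.9% of the reads at shared sites in untreated replicates 1 and 2. After LPS they came to 27.7% and 20.3%. Both LPS libraries lay below both untreated libraries. The 2 classes were told apart by the LPS p300 peak, so this direction followed from the choice of sites and is a description. In replicate 1, reads over input went from 1.28 to 1.17 at untreated-only sites and from 1.21 to 2.14 at shared sites. The percentage there thus fell mainly because reads at shared sites rose. The same percentage was 50.8% in input, close to that of untreated replicate 1.

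p300 reads stayed above input at these sites in replicate 2. After LPS that library still held 2.35 times the reads of input, and its read density was 3.68 times that of the flanks 2 to 5 kb away, against 7.55 times before LPS. Input itself reached 1.70 times its flanks at these sites, and LPS replicate 1 reached 2.28 times. The median site held 25 reads in untreated replicate 2 and 10 in LPS replicate 2. In replicate 1 it held 6 and 5. Of the 2638 sites, 13 had no read in LPS replicate 2 and 82 had none in LPS replicate 1. Input held a median of 4 reads and had none at 162 sites, so having a read does not by itself show p300 at a site.

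The p300 peaks at these sites were weaker than those at shared sites. The authors' score, 10 times the -log10 p-value of their peak caller, had a median of 76.1 (quartiles 59.8 and 108) in the untreated list, and 42.1% of sites scored under 70. Shared sites had a median untreated score of 149. Over all merged sites with an untreated p300 peak the median was 71.1. At LPS-only sites the median score in the LPS list was 78.4, so the untreated-only scores were near both. The list threshold lay at 50. The median width was 551 bp, against 828 bp at shared sites and 635 bp at LPS-only sites. Untreated-only p300 sites that lacked PU.1 or H3K4me1 were weaker and narrower still, with a median score of 58.2 and a median width of 333 bp.

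Fitted changes followed from the choice of sites and are given as a description. Across all 19727 merged sites with at least 10 p300 reads, limma voom with Benjamini-Hochberg adjustment at 0.05 called 42 sites lower after LPS, a percentage of 0.213. All 2638 untreated-only sites passed the read minimum, and 32 of them were among the 42 called, none of them higher. The fitted log2 fold change was below 0 at 2602 of the sites (98.6%), with a median of -0.97 (quartiles -1.36 and -0.63), against -0.04 at shared sites and 1.04 at LPS-only sites. It was under -1 at 1269 sites (48.1%), against 22.3% of all tested sites. At 1709 sites (64.8%) both LPS libraries lay below both untreated libraries after scaling, against 27.9% of all merged sites. Nothing is read from these shares, because the peak lists that chose the sites were called on the same reads.

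Within replicate pairs, the median log2 ratio of LPS to untreated was -0.71 in replicate 1 and -1.07 in replicate 2, with 78.5% and 97.8% of sites below 0. Both pairs were below 0 at 2018 sites (76.5%). The size of the replicate 1 change depended on how libraries were scaled. Pooled over the sites, the replicate 1 ratio was 0.612 with median-of-ratios scaling and 0.917 with scaling by total reads. For replicate 2 the ratios were 0.454 and 0.404. At shared sites the pooled ratio lay above 1 in replicate 1 under both scalings (1.18 and 1.76) and below 1 in replicate 2 (0.913 and 0.813).

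The calls rested on the scaling and on single libraries. No site was called lower with total reads as library sizes (30 at an unadjusted limma p under 0.05), nor without either LPS library (264 at that unadjusted level without replicate 1 and 21 without replicate 2). Without untreated replicate 1 the count was 148, of 222 among all sites, and without untreated replicate 2 it was 66 of 282, against 32 of 42 with all libraries.

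The 32 called sites lay on 12 chromosomes, and 29 of them were among the 660 sites with the highest untreated scores. Their untreated scores had a median of 224 and ranged from 53.8 to 498, and each held 51 to 163 p300 reads over the 4 libraries. The fitted log2 fold changes ran from -2.71 to -1.84. At all 32 the libraries of the conditions did not overlap, against 64.8% of all untreated-only sites and 27.9% of all merged sites. The calls were made on these same reads. Of the 32, 31 kept a PU.1 peak after LPS, beside 93.6% of all untreated-only sites. PU.1 reads were fewer after LPS at 29 of them, with a median log2 ratio of -0.44. Among all untreated-only sites 68.8% were below 0, with a median of -0.17.

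The sites with the largest called falls are given with every library, in coordinates of mouse build mm9 as deposited. Genes at or near them were not analysed here. Normalised reads are reads divided by the library's median-of-ratios factor, and adjusted p-values are those of limma voom over all tested sites. At chr10:95736475-95737177, normalised p300 reads were 18.02 and 27.03 in untreated replicates 1 and 2, and 2.81 and 3.16 in LPS replicates 1 and 2. The fitted log2 fold change was -2.71 (SE 0.81, adjusted p = 0.044). Untreated libraries were high and LPS libraries low in both replicates. The lack of overlap was a condition for picking these sites.

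At chr4:144608916-144609915 the untreated libraries held 48.7 and 63.4 normalised p300 reads and the LPS libraries 9.83 and 8.85, a log2 fold change of -2.52 (SE 0.57, adjusted p = 0.0022 by limma voom). This was the best supported of the 5 sites and had the highest untreated score of the called sites, 498. Its PU.1 reads went from 211 to 155, a ratio of 0.735 (95% interval 0.593 to 0.908), and both PU.1 lists held a peak there.

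The site chr10:120062189-120063093 held 21.6 and 43.6 normalised p300 reads in untreated cells and 14.0 and 3.16 after LPS, a log2 fold change of -2.58 (SE 0.60, adjusted p = 0.0034 by limma voom). Here 1 library decided the size: without LPS replicate 2 the fitted change was -0.95. A p300 peak of the LPS list lay 1537 bp away. PU.1 reads were 98 before and 41 after LPS.

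At chr7:106823228-106823894, normalised p300 reads were 16.2 and 27.0 in untreated libraries and 5.62 and 3.16 in LPS libraries (log2 fold change -2.44, SE 0.70, limma voom adjusted p = 0.032). PU.1 reads went from 119 to 40, a ratio of 0.336 (95% interval 0.229 to 0.485). The site chr2:163054756-163055346 held 19.8 and 22.1 normalised p300 reads against 5.62 and 3.16 after LPS (log2 fold change -2.42, SE 0.70, limma voom adjusted p = 0.034). It had the lowest PU.1 ratio of all untreated-only sites with at least 40 PU.1 reads, 49 reads against 8, and no PU.1 peak after LPS. The call at each of these 5 sites was lost with total reads as library sizes and without either LPS library, while the direction was kept. The sites were picked for their large falls in these reads, so the kept direction is a description.

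**Figure D2:**
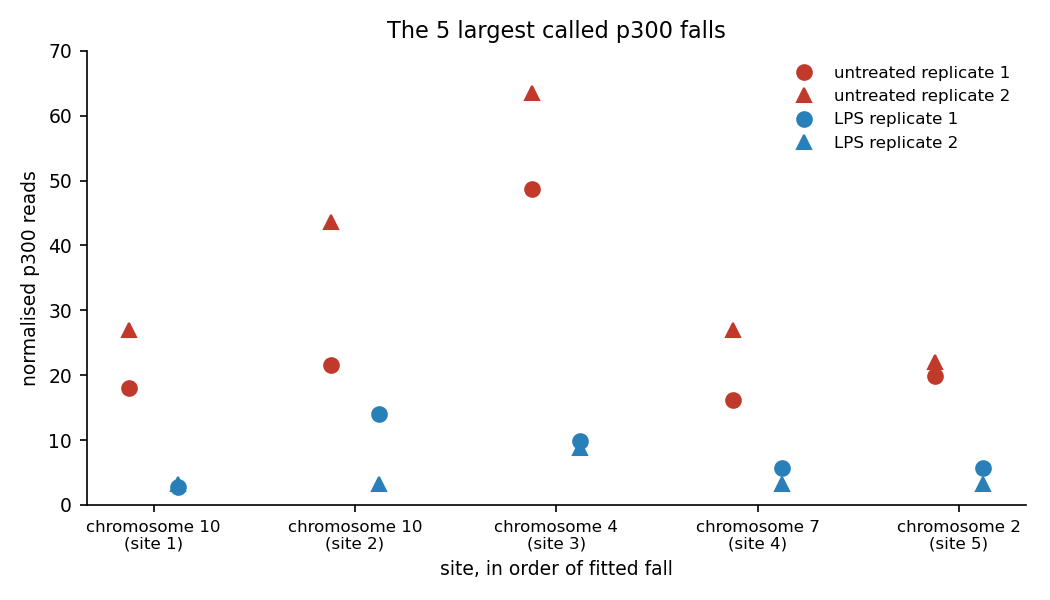
Normalised p300 reads (vertical axis, linear) in each of the 4 libraries at the 5 untreated-only sites with the largest called falls, in order of fitted fall. The sites were picked with untreated libraries above LPS libraries. The gap was smallest at the second site, where untreated replicate 1 held 21.6 and LPS replicate 1 held 14.0.

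The 3 sites with the highest untreated p300 scores were not among the largest called falls given above. Over all untreated-only sites the strongest group by score had the larger median fall, as given below with the limit of that grouping. The site chr7:74606279-74608002 had the highest untreated score, 883, with 43.2 and 107 normalised p300 reads in untreated cells and 25.3 and 18.96 after LPS. At chr15:61831049-61831697 (score 598) the values were 12.6 and 62.9 before and 14.0 and 13.9 after LPS, so the replicate 1 libraries did not differ in the direction of the fall. At chr16:33921169-33923227 (score 543) they were 43.2 and 91.0 before and 32.3 and 17.1 after. None of the 3 passed the limma voom test, with adjusted p-values of 0.12 to 0.30 and log2 fold changes of -1.50, -0.94 and -1.30. PU.1 went from 195 to 192 and from 173 to 160 reads at the first and second, and from 156 to 86 at the third.

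The sites were split into 4 groups of 659 or 660 by untreated score. In untreated replicate 2, reads over input were 4.82 in the weakest group (scores 50 to 59.8) and 7.04 in the strongest (scores 109 to 883). LPS replicate 2 was flat, with 2.32, 2.33, 2.43 and 2.32 from weakest to strongest. Replicate 1 stayed between 1.25 and 1.29 in untreated cells and between 1.13 and 1.21 after LPS. The sites were chosen for having no LPS peak, which limits the LPS reads in every group. The median fitted change was -0.87 in the weakest group and -1.13 in the strongest, which held 29 of the 32 calls. The score that set the groups came from untreated p300 reads that also enter the fitted change. The larger fall in the strongest group is therefore a description, and the part the grouping plays in it was not tested.

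**Figure D3:**
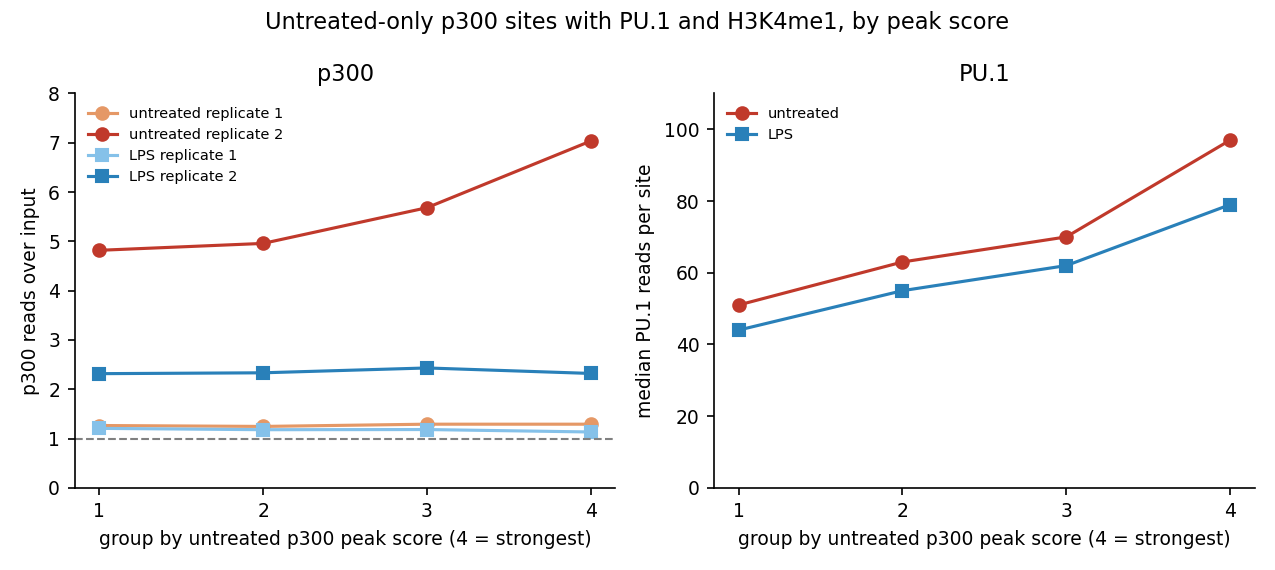
Untreated-only sites in 4 groups of 659 or 660 by untreated p300 peak score (horizontal axis, 4 the strongest). Left, p300 reads over input in each library: untreated replicate 2 rose from 4.82 to 7.04 across groups while LPS replicate 2 stayed between 2.32 and 2.43. Right, median PU.1 reads per site, which went from 51 to 97 in untreated cells and from 44 to 79 after LPS.

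Sites near the threshold showed how thin the border of the set was. The 3 sites with the lowest untreated scores (50.0 at chr11:67292962-67293356, 50.03 at chr6:85037306-85037676 and 50.06 at chr14:78249614-78250126) had fitted log2 changes of -1.91, -0.86 and -0.29. At the last of them untreated and LPS replicate 2 held 11.6 and 13.3 normalised reads. Just outside, 3 sites were left out only by an LPS peak scoring 50.01 to 50.06: chr1:192898989-192899574, chr13:55996793-55997385 and chr4:9042979-9043531. Their fitted changes were -0.48, -0.94 and -0.22, within the range of the sites kept. At chr6:85037306-85037676 the PU.1 peak touched the p300 site only at its edge, and the site itself held 0 untreated and 4 LPS PU.1 reads.

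PU.1 stayed at most of these sites after LPS. A PU.1 peak of the LPS list overlapped 2468 of the 2638 (93.6%, exact 95% interval 92.6 to 94.5). The share was 96.6% at shared sites, 94.6% at LPS-only sites and 85.6% at 27998 PU.1 sites with H3K4me1 and no p300 peak. Per site, the median was 69 PU.1 reads in the untreated library and 60 after LPS.

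The median log2 ratio of PU.1 after LPS to untreated was -0.17 (quartiles -0.43 and 0.04), and 1816 sites (68.8%) were below 0. Pooled over the sites, 224467 untreated reads stood against 199510 after LPS. This gave a ratio of 0.889 (95% interval 0.883 to 0.894, counting error only, with libraries scaled by the median of ratios over PU.1 sites, a factor of 1). Shared sites had a median of 0.04 and a pooled ratio of 1.04, and LPS-only sites 0.31 and 1.26. The order of the 3 classes followed their p300 lists. The sign at shared sites depended on scaling: their median was -0.02 by total reads and -0.15 by background bins, where untreated-only sites had -0.23 and -0.37. Background bins moved the median of all merged sites by -0.19, and by construction a scaling shifts every site alike.

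PU.1 sites that had no p300 peak in either list are a further reference, since they were chosen by the same untreated PU.1 and H3K4me1 peaks. Counted over the PU.1 site, their median log2 ratio was -0.16, 62.6% were below 0, and the pooled ratio was 0.925. These sites were weaker in PU.1, with a median of 36 untreated reads. Among sites with at least 40 PU.1 reads the medians were -0.16 at untreated-only sites and -0.11 at sites without p300, where 11.6% had an interval of the ratio wholly below 1 and 4.82% wholly above it. All classes required a PU.1 peak before LPS and asked for none after it, and the part this plays in a ratio below 1 was not tested.

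The classes kept their order when sites of like PU.1 strength, by untreated PU.1 reads, were compared. Those reads also enter the ratio, and the part this plays in the values of each range was not tested. At up to 36 untreated PU.1 reads, the median log2 ratio was -0.17 at untreated-only sites, 0.27 at shared sites and 0.51 at LPS-only sites. Above 120 reads it was -0.13, 0.00 and 0.10. In the ranges between, untreated-only sites had -0.20 and -0.21. Sites without p300 went from -0.18 at the weakest to -0.10 at the strongest, on the side of the untreated-only sites in each range. With 1 PU.1 library per condition these differences between classes carry no test across libraries.

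**Figure D4:**
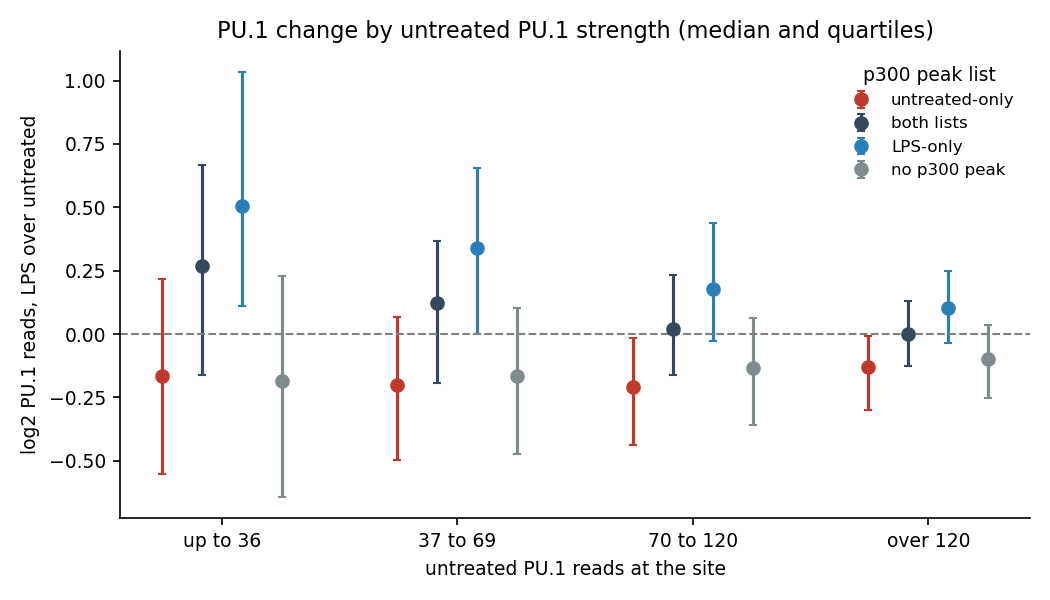
Log2 ratio of PU.1 reads after LPS to untreated (vertical axis) in 4 ranges of untreated PU.1 reads (horizontal axis), as the median with quartile bars, for untreated-only, shared and LPS-only p300 sites and for PU.1 sites without a p300 peak, all with untreated PU.1 and H3K4me1 peaks. Untreated-only sites lay between -0.21 and -0.13 in the 4 ranges, LPS-only sites between 0.10 and 0.51. Bars show the spread of sites, not of libraries.

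Single sites were read where PU.1 counts allowed it. Of 2334 untreated-only sites with at least 40 PU.1 reads over both libraries, 415 (17.8%) had an exact 95% interval of the ratio wholly below 1, against 7.67% of all merged p300 sites with that depth. Only 34 (1.46%) had an interval wholly above 1, against 14.5% of all. PU.1 was more than 2-fold lower at 93 sites (3.98%, against 1.45% of all) and more than 2-fold higher at 8 (0.343%, against 5.77% of all). Among PU.1 sites of that depth with H3K4me1 and no p300 peak, 3.09% were more than 2-fold lower and 1.38% more than 2-fold higher. At shared sites of that depth these shares were 0.351% and 2.30%. A large loss of PU.1 was thus seen at few of the sites that lost their p300 peak.

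The sites with the lowest PU.1 ratios, beside chr2:163054756-163055346 given above, were chr4:94773503-94774293, with 45 reads before and 9 after LPS (ratio 0.20, 95% interval 0.086 to 0.414), and chr14:104344941-104345383, with 113 and 31 reads (ratio 0.274, 0.178 to 0.411). The first of these had no PU.1 peak in the LPS list, and the second had one. p300 was lower at both, with log2 changes of -2.37 and -1.88 that missed the limma voom threshold (adjusted p = 0.059 and 0.19). A p300 peak of the LPS list lay 406 bp from the first.

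PU.1 reads were more numerous after LPS at a few sites. At chr2:25389670-25390062 there were 8 reads before and 38 after LPS (ratio 4.75, 95% interval 2.18 to 11.8). The sites chr9:92150060-92150348 and chr12:101112816-101113171 went from 17 to 43 and from 12 to 30 reads, ratios of 2.53 and 2.50. All 3 had weak untreated PU.1 peaks, scoring 69.2 to 107, and stronger ones after LPS, scoring 193 to 287. p300 had fitted log2 changes of -0.48, 0.01 and -0.32 at the 3 sites in that order.

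The sites with the densest untreated PU.1 signal kept it. At chr13:37543414-37543698, PU.1 reads were 205 before and 209 after LPS, at chr10:21609208-21609577 253 and 269, and at chr14:70802239-70802591 213 and 212. These held 719, 684 and 603 untreated PU.1 reads per kb. The ratios were 1.02, 1.06 and 0.995, and each 95% interval included 1. Their p300 peaks were weak to middling, scoring 50.9, 103 and 66.5, so dense PU.1 did not go with a strong p300 peak at these 3. A count per kb favours narrow sites, and these were 285, 370 and 353 bp wide, against a median of 551 bp. Over all untreated-only sites, median untreated PU.1 reads rose from 51 in the weakest group by p300 score to 97 in the strongest.

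A minority of 170 sites had no PU.1 peak after LPS. These were weak PU.1 sites from the start, with a median of 23.5 untreated reads and a median score of 81.5, against 73 reads and 300.8 at the other 2468. Their PU.1 median went to 13 reads after LPS, a median log2 ratio of -0.74. This is a description, since the lack of an LPS PU.1 peak that set these sites apart came from the same PU.1 library. The median p300 change was -1.14, against -0.96 at the others, and 1 of the 32 called sites was among them.

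Sites with a larger p300 fall had, on the whole, a lower PU.1 ratio. Among the 2334 sites with enough PU.1 reads, the 778 with the largest p300 falls (median log2 change -1.54) stood at a PU.1 log2 ratio of -0.29 by the median, with 79.4% below 0. The next 778 (-0.97) had -0.15, and the last 778 (-0.50) had -0.07, with 60.03% below 0. Across these 2334 sites Pearson's r was 0.31 and Spearman's rho 0.28. This is a description: all points share the same 6 libraries, neighbouring sites are not independent, and the p300 change was used in choosing the sites.

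**Figure D5:**
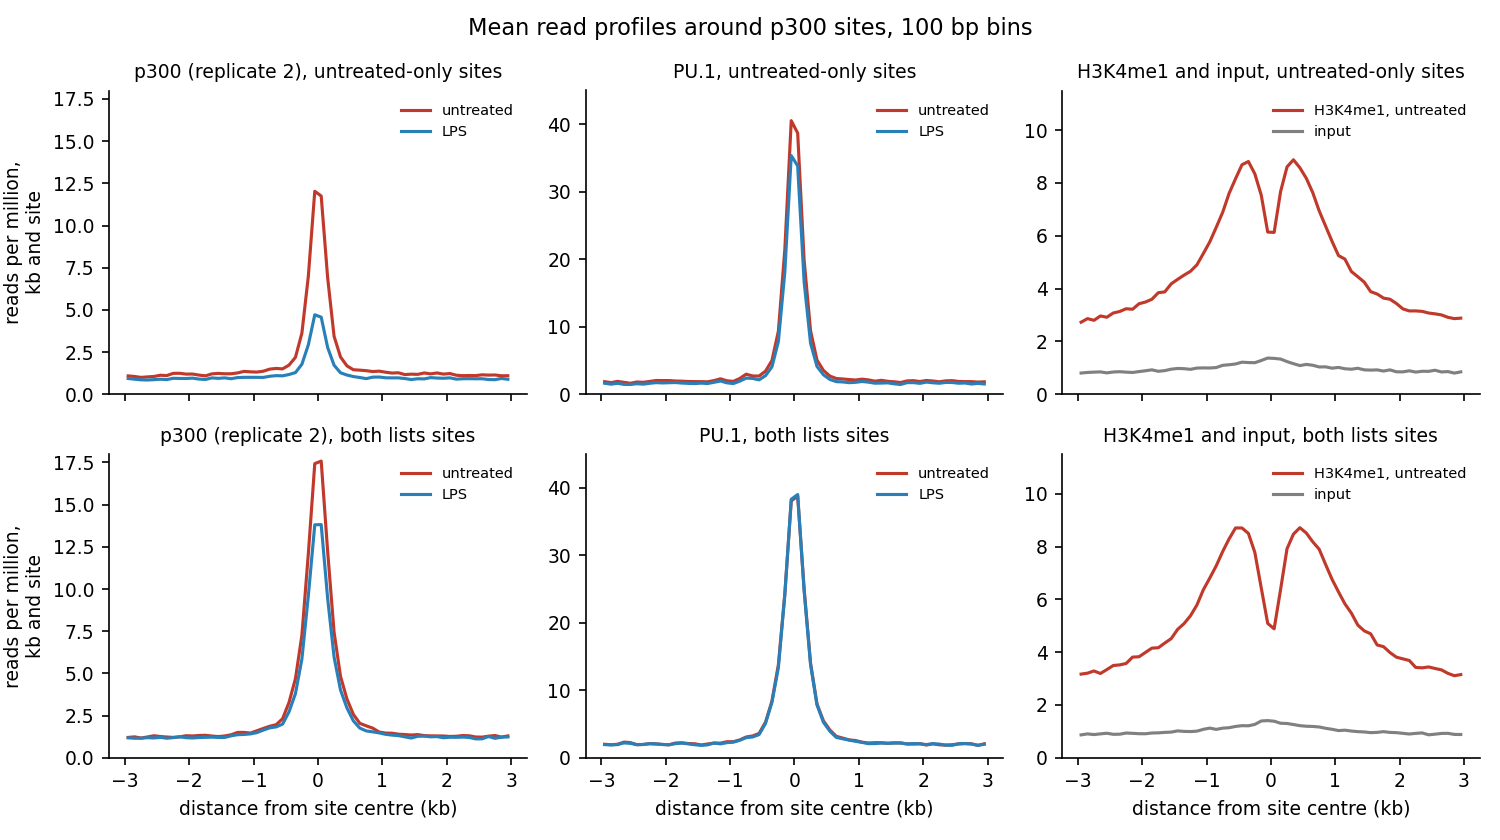
Mean read density (RPM, reads scaled to the library's kept reads, per kb and site, linear axis from 0) in 100 bp bins within 3 kb of the site centre, at 2638 untreated-only sites (top) and 3264 shared sites (bottom). Left, p300 replicate 2 before and after LPS; middle, PU.1 before and after LPS; right, untreated H3K4me1 and input. Within 100 bp of the centre of untreated-only sites, p300 replicate 2 went from 11.9 to 4.64 and PU.1 from 39.6 to 34.6.

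Read profiles placed p300, PU.1 and H3K4me1 with respect to each other. Within 100 bp of the centre, p300 replicate 2 stood at 11.9 RPM per kb before LPS and 4.64 after, while replicate 1 stood at 2.13 and 2.00. PU.1 stood at 39.6 and 34.6. At shared sites p300 replicate 2 was at 17.5 and 13.8, and PU.1 at 38.4 and 38.6. Untreated PU.1 was thus as dense at untreated-only sites as at shared sites, where p300 was higher. The PU.1 peak's centre lay a median of 70.5 bp from the p300 site's centre (81 bp at shared sites), and 94.7% of site centres lay inside a PU.1 peak.

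H3K4me1 was as high around these sites as around shared ones before LPS. Within 1 kb of the centre, H3K4me1 over input had a median log2 ratio of 2.57 (quartiles 2.12 and 2.99), from a median of 86 H3K4me1 and 14 input reads. Shared sites had 2.53 and LPS-only sites 2.33. An H3K4me1 peak was required of all 3 classes, and with 1 library the differences between them have no test.

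The mark was shaped as 2 shoulders around a central dip. H3K4me1 density was 6.13 RPM per kb within 100 bp of the centre and highest, at 8.84, in the bins 350 bp from the centre. Shared sites had a deeper and wider dip, 4.99 at the centre and 8.71 at 450 bp. LPS-only sites had the shallowest, 5.42 at the centre and 6.79 at 250 bp. A dip in a histone mark over a factor's binding site is commonly taken as a stretch with fewer nucleosomes. Here it was measured in untreated cells alone.

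The classes also differed in where the H3K4me1 peaks lay. The centre of the p300 site fell inside an H3K4me1 peak at 2174 untreated-only sites (82.4%, 95% interval 80.9 to 83.8), at 66.6% (64.9 to 68.2) of shared sites and at 75.8% of LPS-only sites. Overlap with more than 1 H3K4me1 peak was seen at 23.4%, 40.9% and 24.4%. Width differed between the classes, so sites of 431 to 716 bp, the middle of the untreated-only widths, were compared as well. There the centre was inside an H3K4me1 peak at 83.8% of 1325 untreated-only sites (81.7 to 85.7), 73.1% of 1068 shared sites (70.4 to 75.8) and 78.0% of 736 LPS-only sites. In those sites H3K4me1 reads 300 to 500 bp out were 1.53 times those within 100 bp of the centre, against 1.70 at shared and 1.21 at LPS-only sites.

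The highest ratios of H3K4me1 to input rested on few input reads. At chr19:58178740-58179477 there were 47 H3K4me1 and 0 input reads within 1 kb, at chr15:84515875-84516263 60 and 1, and at chr2:33058917-33059225 130 and 4. The last had an H3K4me1 peak scoring 2293, against a median of 358 at all untreated-only sites. p300 passed the test at none of the 3 (limma voom adjusted p = 0.30 to 0.48), and PU.1 reads went from 35 to 32, from 54 to 36 and from 30 to 17.

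Most untreated-only sites stood alone in their enhancer region. H3K4me1 peaks within 1 kb of each other were joined into 49518 domains, and the 2638 sites lay in 2510 of them. Of these domains 2394 held 1 untreated-only site, 116 held more, and the most in 1 domain was 4. At 2086 sites (79.1%) no other p300 site of any list lay in the domain, against 72.1% of shared and 83.2% of LPS-only sites. A p300 site of both lists shared the domain at 261 sites (9.89%), and an LPS-only site at 59 (2.24%).

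Distances to p300 peaks of the LPS list were measured for the untreated-only sites alone, with no other class beside them. The choice of sites had already left out any site that overlapped such a peak. The nearest p300 peak of the LPS list lay within 500 bp at 63 sites (2.39%), within 1 kb at 111 (4.21%) and within 10 kb at 27.4%. The median distance was 28358.5 bp. The 59 sites that shared an H3K4me1 domain with an LPS-only p300 site had a median p300 log2 change of -0.82 and a median PU.1 log2 ratio of -0.09, against -0.97 and -0.16 at sites alone in their domain.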

How the data were processed

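Reads aligned to mouse build mm9 and peak lists were used as deposited. The authors' peak score is 10 times the -log10 p-value of MACS, per the file headers and the deposited column description, and the lowest score lay at 50. Aligner and filters are not given in the sources used here. Per the file headers, the controls for peak calling were a library named naked for p300, one named random for PU.1, and input for H3K4me1. Per the series' design text, p300 reads of 2 biological replicates were merged. The untreated PU.1 list's header names LPS. Its 14147 peaks absent from the other list held 205573 untreated and 112983 LPS reads, so it was used under its sample's label.

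From the deposited reads, 1 read was kept per position and strand, and 5' ends were moved 100 bp downstream and counted over sites. Whether list starts count from 0 or 1 is not stated; coordinates are printed as deposited. The p300 fit was by voom in limma 3.58.1 under R 4.3.3, 2 libraries against 2, treatment as the single term, scaling by the median of ratios, at least 10 reads, and Benjamini-Hochberg adjustment at 0.05 over all sites. Here the fit estimated 1 residual variance for all sites together, and the printed SE and p carry no information on how far a single site's replicates differ. PU.1 log2 ratios had 0.5 reads added and H3K4me1 ratios 1 read. Shares carry exact binomial (Clopper-Pearson) and ratios exact conditional 95% intervals, for counting error only. Python 3.11.15 with scipy 1.17.1 was used, and the code was tested on simulated data.

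Named sites were the 5 lowest fitted changes among called sites with at least 40 reads and libraries apart, the 3 highest untreated scores, the 3 lowest and 3 highest PU.1 ratios at 40 or more reads, the 3 densest in PU.1, the 3 highest in H3K4me1 over input, and the 3 nearest the threshold on each side. The sites and rules were chosen with earlier results of these data known. Alternatives varied scaling, read minimum, duplicates, shift, tool, replicate block and libraries. Sequence motifs and neighbouring genes were not analysed here, since the annotation used is of another build.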

Additional observations from a re-analysis of the deposited data

How the results depend on the processing

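The count of untreated-only sites called lower after LPS, 32 as reported, was the least stable result. It was 0 when libraries were scaled by total reads or by background bins (30 sites at an unadjusted p under 0.05 in each, smallest adjusted limma p 0.58 and 0.62). Among all sites, 42 as reported, the count was 0 in both. It was 293 of 449 with a minimum of 40 reads (1601 of the sites tested, all 32 included) and 55 of 76 with all reads kept (26 shared). Leaving out 1 library at a time gave 0 to 148. With the replicate number of the read files as a block it was 204 of 395, 31 of them shared. No label says that a number marks a shared batch. The libraries of a number were alike in reads kept after removing duplicates, 97.0% and 96.0% in replicate 1 and 78.0% and 74.2% in replicate 2. No minimum, a 50 bp shift and limma-trend gave 24 of 31, 33 of 41 and 46 of 61. The median p300 log2 change was below 0 in each alternative computed for it, which left out the block and the fit without a minimum: -0.73 by total reads, -0.77 by background bins, -1.07 to -0.81 without each library, and, in comparisons added after seeing the data, -0.71 in the replicate 1 pair alone and -1.07 in the replicate 2 pair alone. Relative to the median of all sites, which total reads moved to 0.20 and background bins to 0.16, it was -0.93 and -0.92.

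The median PU.1 log2 ratio was -0.23 by total reads, -0.37 by background bins and, added after seeing the data, -0.15 over the middle widths. The share with a PU.1 peak after LPS was 89.4% when a score of 70 was asked of it. The H3K4me1 median was 2.35 within 2 kb, 2.62 with all reads and 2.63 with 0.5 reads added. p300 after LPS over input, 1.78 pooled, ranged from 1.17 to 2.35 without either library. The number of sites was 2538 with a 100 bp overlap, 1866 with scores of at least 70 and 2581 with near peaks merged. For these values the cause was not tested beyond what each alternative changes. All 5 largest falls stayed below 0 under 12 alternatives, and the 6 PU.1 extremes kept their direction in 24 of 24 values. These sites were picked as extremes of the same reads, so their kept direction is a description and not a check. The motif alternatives were not run. Depth limits single sites: a median of 10 p300 reads in LPS replicate 2 and 5 in replicate 1 cannot show whether a site lost p300 wholly.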

Other observations

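The untreated-only sites were spread over the autosomes, where they made up 10% to 16.2% of the merged p300 sites of each chromosome. On the X chromosome they made up 21 of 347 (6.05%, exact 95% interval 3.78 to 9.10), against 13.4% on the autosomes. Input held a median of 1 read per merged p300 site on X and 2 on the autosomes. The X chromosome had 1275 H3K4me1 and 1862 PU.1 peaks, against 83468 and 71638 on the autosomes. The part that coverage and peak number play in the lower share was not tested. Of p300 sites in the untreated list alone, 16.8% (10.7 to 24.5) carried PU.1 and H3K4me1 peaks on X, against 34.6% on the autosomes. Of p300 sites in both lists, 30.6% (20.2 to 42.5) did so on X, against 71.3% on the autosomes. For the LPS list alone the shares were 15.3% (9.98 to 22.1) and 21.2%, so there the interval on X included the autosomal share.

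The 5054 p300 sites of the untreated list alone that lacked PU.1 or H3K4me1 were compared by replicate. Their reads over input were 3.21 and 7.04 in untreated replicates 1 and 2, and 1.77 and 2.85 after LPS. In untreated replicate 1 they thus stood above the untreated-only sites with both marks, which were at 1.28, and above the shared sites, at 1.21. The LPS-only sites were at 0.858 in that library. In untreated replicate 2 the untreated-only sites with both marks were at 5.81 and the shared sites at 7.21. The 5054 sites were chosen by untreated p300 peaks called on these reads, so their untreated values are a description. Input was sparse there, with a median of 1 read and none at 2314 sites.

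Some of the 32 called sites lay near each other. They were noticed after their values were seen. On chromosome 8, chr8:118120924-118121878 and chr8:118137972-118138590 held 11 and 12 reads in untreated replicate 1, 72 and 40 in untreated replicate 2, 9 and 6 in LPS replicate 1, and 8 and 5 in LPS replicate 2. PU.1 went from 148 to 82 reads at the first and from 117 to 61 at the second. On chromosome 15, chr15:38531757-38532758 and chr15:38573780-38574539 held 71 and 60 reads in untreated replicate 2 and 14 and 10 in LPS replicate 2, while PU.1 went from 81 to 63 and from 250 to 243.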
